A study of Mus musculus with 47 samples.

Results

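Macrophages cultured from bone marrow (BMDMs) were the cells measured here. The response of wild-type (WT) BMDMs to IL-4 was measured by setting 1 RNA-seq library of IL-4-treated cells against 1 library of non-treated (NT) cells, 2 of the 47 samples of the series. All 51912 genes that both tables list were joined by their Ensembl identifier, and the 13090 of them that averaged 10 counts or more over both libraries were compared. The cells came from C57BL/6 femurs and tibias, were grown for 5 days with M-CSF, the growth factor of macrophages, and were then left without further treatment or given 20 ng/ml IL-4 for 6 h. WT means Zmynd8 fl/fl littermates without Cre, so the control cells carry the floxed Zmynd8 allele as well. The age and sex of the donors are not given in the sources used here. Set beside this pair are the NT and IL-4 libraries of Zmynd8 cKO BMDMs, in which Cre is driven by the Lyz2 locus of myeloid cells, and the LPS libraries of both genotypes, treated with 100 ng/ml LPS for 6 h. The methods state that 3 biological replicates were mixed into each library. There is thus 1 library per condition, no difference has a replicate check, and no p-value is given.

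IL-4 is a cytokine of type 2 helper T cells, basophils and mast cells. It binds a receptor made of IL-4Rα and a partner chain, the JAK kinases bound to the receptor phosphorylate STAT6, and STAT6 dimers enter the nucleus and bind DNA. The state that macrophages then take up is called alternative or M2 activation, is marked in mice by arginase 1, chitinase-like proteins and resistin-like molecule alpha, and is known from parasite infection, allergy and tissue repair. LPS, a part of the bacterial cell wall, drives the classical or M1 state through TLR4, NF-κB and interferons.

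The 3 markers of alternative activation were at or near 0 in NT and were raised in the IL-4 library. Arg1 (ENSMUSG00000019987), which encodes arginase 1 and splits arginine into ornithine and urea, had 20 counts in WT NT and 42592 in WT IL-4. Chil3 (ENSMUSG00000040809), which encodes the chitinase-like protein Ym1, had 18 and 8404 counts. Retnla (ENSMUSG00000061100), which encodes resistin-like molecule alpha, had 0 and 85 counts. As a ratio of CPM, which scales counts to the total of the library, Arg1 was 1966-fold higher after IL-4 (95% Clopper-Pearson limits 1273 to 3219), Chil3 was 431-fold higher (273 to 728), and Retnla was at least 26.2-fold higher against a floor of 3 counts. These limits and floors cover counting error only, and reads without molecular identifiers are not independent molecules. In the cKO pair Arg1 had 14 and 40252 counts and Chil3 had 9 and 10433, whereas Retnla had 0 and 5. After LPS the WT library held 659 counts of Arg1, 15 of Chil3 and 0 of Retnla. All 3 were thus highest in IL-4 libraries, and in the cKO IL-4 library Retnla stayed near the floor of 3 counts. By TPM, which is per length and lets genes be compared, Arg1 stood at 0.88 in NT and at 1778 after IL-4, where it was the gene of rank 66 in the library. The tables list different lengths for 36.5% of genes, so TPM is given here and further on as a level within a library, and changes are read from counts. Chil3 stood at 0.75 and 330 TPM, and Retnla at 0 and 12.7 TPM.

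STAT6 binds the inverted pair TTC and GAA with 4 bases between them, and other STAT proteins favour a gap of 3. Shown here are promoters of alternative activation genes with either form, because STAT6 acts downstream of the IL-4 receptor. Of the genes printed, Chil3 holds only the form with the gap of 3, and Itgax and Tfec, which hold the other, are not printed. Each line gives the 250 bases before the RefSeq start of the gene (GRCm38.p6, the mm10 build of the alignments), 5′ to 3′ on the strand of the gene, and capitals mark TTC and GAA with the bases between them, in 1 match a line. In Ccl17 this is the form with the gap of 4, and a second match with the gap of 3 is left in lower case. For Retnla the stretch is chr16:48842359-48842608 on the + strand, for Pdcd1lg2 chr19:29410669-29410918 (+), for Ccl17 chr8:94810203-94810452 (+), for Clec7a chr6:129472780-129473029 (-), and for Chil3 chr3:106167565-106167814 (-).
Retnla: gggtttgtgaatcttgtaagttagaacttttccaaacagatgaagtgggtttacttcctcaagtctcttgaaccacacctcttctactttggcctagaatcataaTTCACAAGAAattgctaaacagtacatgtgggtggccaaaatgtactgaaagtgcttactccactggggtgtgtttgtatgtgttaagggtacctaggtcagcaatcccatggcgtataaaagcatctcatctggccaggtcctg
Pdcd1lg2: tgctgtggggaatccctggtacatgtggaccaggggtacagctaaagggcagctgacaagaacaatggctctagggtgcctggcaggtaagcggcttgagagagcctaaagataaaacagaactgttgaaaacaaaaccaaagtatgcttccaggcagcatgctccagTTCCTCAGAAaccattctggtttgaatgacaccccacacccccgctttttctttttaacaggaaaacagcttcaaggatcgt
Ccl17: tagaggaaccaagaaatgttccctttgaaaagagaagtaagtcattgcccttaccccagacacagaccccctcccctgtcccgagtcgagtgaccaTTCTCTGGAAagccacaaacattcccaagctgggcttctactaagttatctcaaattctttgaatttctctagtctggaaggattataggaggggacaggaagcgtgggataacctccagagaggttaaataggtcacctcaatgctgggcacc
Clec7a: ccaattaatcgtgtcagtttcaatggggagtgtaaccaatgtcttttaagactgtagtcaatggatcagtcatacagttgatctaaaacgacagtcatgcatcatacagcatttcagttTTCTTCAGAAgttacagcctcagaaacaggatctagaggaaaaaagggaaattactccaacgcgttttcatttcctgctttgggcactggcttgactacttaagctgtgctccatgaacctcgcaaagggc
Chil3: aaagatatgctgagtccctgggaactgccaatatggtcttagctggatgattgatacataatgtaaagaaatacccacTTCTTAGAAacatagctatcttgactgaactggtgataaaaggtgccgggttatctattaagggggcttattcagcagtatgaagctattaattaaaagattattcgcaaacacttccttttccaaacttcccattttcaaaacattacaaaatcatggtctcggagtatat
The motif TTCNNNNGAA reads the same on both strands. In the lines above it ends 136 bases before the start in Retnla, 73 in Pdcd1lg2 and 145 in Ccl17. Chil3 holds the form with the gap of 3, TTCNNNGAA, 164 bases before its start, and Ccl17 holds that form as well, 91 bases before. The RefSeq table gave a promoter for 22 of the 30 compared members of the list of alternative activation genes described next, and 6 of the 22 (27.3%) held TTCNNNNGAA, namely Retnla, Pdcd1lg2, Ccl17, Clec7a, Itgax and Tfec. It was held by 438 of the 9541 promoters found among all compared genes (4.59%), by 51 of 958 of the genes at least 2-fold higher after IL-4 (5.32%) and by 31 of 563 of those at least 2-fold lower (5.51%). TTCNNNGAA was in 3 of the 22 (13.6%), in Chil3, Ccl17 and Il31ra, against 6.04% of all, 6.89% of the higher and 6.57% of the lower genes. Among all genes past 2-fold, the higher and the lower ones thus held either form in like shares. A match is only a run of letters, and the list was chosen with earlier results of these data known.

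Across all compared genes, 1314 were at least 2-fold higher after IL-4 and 810 at least 2-fold lower, on log2(CPM + 1). These are 10.0% and 6.19% of the genes compared, or 16.2% in either direction, and 4655 genes (35.6%) lay within 1.2-fold. The median gene lay at a log2 fold change of 0.15, and with median ratio scaling, which puts it at 0.00, the split was 1076 higher and 1036 lower. On deposited TPM it was 1280 and 758, so the size of the excess of higher genes depends on the scaling. The members nearest the limit lay at 1.001 and 0.999 among the higher genes and at -1.002 and -0.998 among the lower ones. Changes of more than 4-fold were found for 366 genes upwards and 199 downwards, and 52 of the higher genes had at most 3 counts in NT and at least 100 after IL-4. The higher genes took 5.21% of all counts in NT and 17.8% after IL-4, and the lower genes went from 17.8% to 5.55%.

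**Figure D1:**
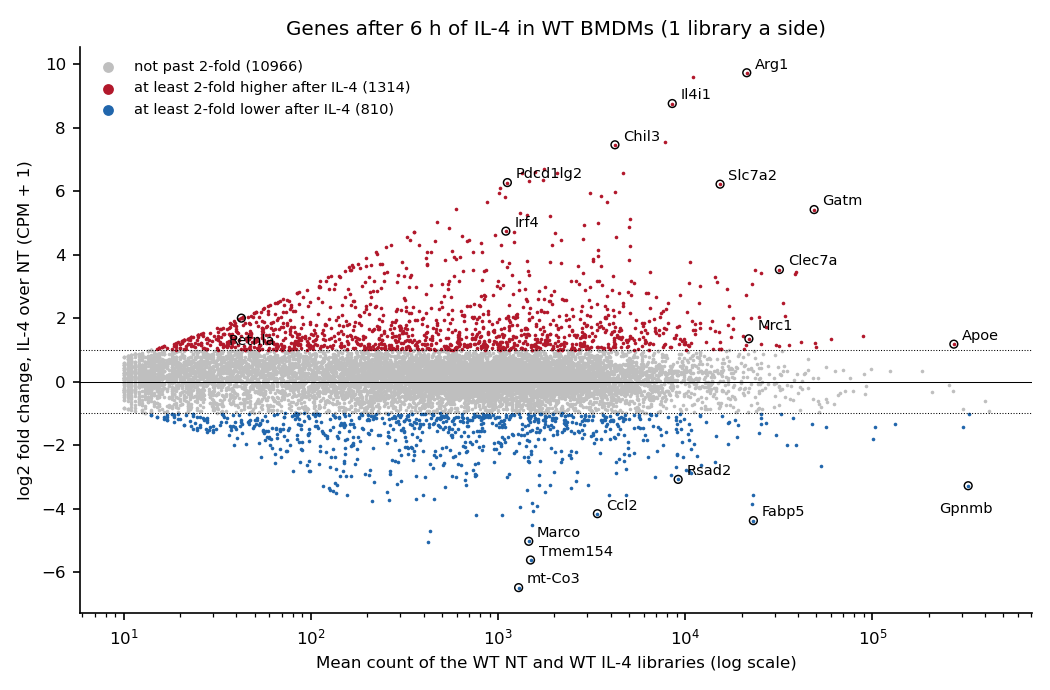
Each point is 1 of the 13090 compared genes, with its mean count in the WT NT and WT IL-4 libraries on a log axis and its log2 fold change, IL-4 over NT, on the y axis; dotted lines mark 2-fold. Arg1 is the highest point at 9.73, mt-Co3 the lowest at -6.49, and the slanted edge at low counts comes from the pseudocount of 1 CPM.

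The 10 highest log2 fold changes among named genes averaging 100 counts or more were those of Arg1, Il4i1, Flt1, Chil3, Rasgrp1, Olr1, Cdh1, Plxdc2, S100a9 and Ngp, from 9.73 down to 6.31. Il4i1 (IL-4 induced 1), a secreted amino acid oxidase, had 10 counts in NT and 17032 after IL-4. By CPM that is 1573-fold more (855 to 3280), and the cKO pair held 4 and 16238. Flt1, a receptor of VEGF, went from 50 to 15462 counts (286-fold, 216 to 385), Rasgrp1, an activator of Ras, from 5 to 3520 (650-fold, 278 to 2003), and Olr1, a receptor of oxidised LDL, from 4 to 3149 (727-fold, 284 to 2669). Cdh1, which encodes E-cadherin, held 14 and 4103 counts and Plxdc2 65 and 9273. All 10 were at least 2-fold higher in the cKO pair as well. S100a9 and Ngp are granule or cytosolic proteins of neutrophils and are taken up with that list further on.

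The 10 lowest were mt-Co3, Tmem154, Marco, Gprc5b, Chst11, Fabp5, Kdr, Gpx3, Ccl2 and Slc40a1, from -6.49 to -4.08. Marco, a scavenger receptor for bacteria, had 2850 counts in NT and 67 after IL-4, 46.1-fold lower (36.2 to 59.6). Fabp5, a fatty acid binding protein, fell from 43962 to 2267 counts (21.0-fold, 20.1 to 21.9) and Ccl2, a chemokine that draws monocytes, from 6423 to 363 (19.2-fold, 17.2 to 21.4). Slc40a1, the iron exporter ferroportin, fell from 2922 to 160 counts (19.8-fold, 16.9 to 23.3), and Kdr, another VEGF receptor, from 1464 to 59, in the direction opposite to Flt1. The value of mt-Co3, with 2572 and 3 counts, is uncertain. Gm28439, a gene model with 0 counts in every NT and LPS library, had 21979 counts in the WT IL-4 library and 20140 in the cKO one, where mt-Co3 kept 1357 counts, and whether the reads of these entries are shared, or whether the tables used different gene models, was not tested.

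Other genes weighed more in the library by their number of reads, and they are named here after their values were seen. Apoe, a lipid carrier protein, gained most, from 6003 to 13637 CPM, and at 30471 TPM it was the highest gene by length after IL-4. Gatm, the first enzyme of creatine synthesis, which also uses arginine, went from 2034 to 95577 counts (43.4-fold, 41.5 to 45.4) and stood at 52.4 and 2323 TPM. Prkcd, a protein kinase C, rose from 6012 to 72114 counts (11.1-fold) and Ctsc, a lysosomal protease, from 6150 to 70804 (10.6-fold). Gpnmb, a transmembrane glycoprotein of lysosomes, lost most, from 22288 to 2299 CPM (9.69-fold lower, 9.62 to 9.77). In NT it was the gene with the most counts, 2.23% of the library. Psap, a lysosomal sphingolipid activator, fell from 16565 to 6166 CPM.

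Of 36 genes listed for alternative activation, 35 were found, 30 passed the low-count filter, 20 were at least 2-fold higher after IL-4 and 3 lower. That is read against 10.0% and 6.19% of all compared genes. The median of the 30 was a log2 fold change of 2.39, against 0.15 over all compared genes. Of the 30, 6 had fewer than 10 counts in NT and passed the filter through the IL-4 library, and 5 of these are among the 20, so that the filter itself favoured higher members. In the cKO pair, 19 of 29 members were higher and 3 lower, at a median of 2.27 against 0.17 over all, where 15.0% of all compared genes were higher and 6.09% lower. The WT LPS library, set against the same NT library, had a median of -0.07 for this list, against -0.58 over all genes compared there. Chil4 (0 and 14 counts), Alox15 (1 and 6), Cd209e (0 and 1), Cd209a and Plet1 (both 0 in each) did not pass the filter, and Ear11 was not found in the tables by its symbol.

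Surface proteins made up part of the 20. Pdcd1lg2, which encodes the PD-1 ligand PD-L2, had 1 count in NT, 2241 after IL-4 and 186 after LPS, and 3 and 1520 in the cKO pair. Its ratio of 2069 carried limits of 371 to 81762, since a single read stands in NT. Mrc1, the mannose receptor CD206, was already high without IL-4 at 11632 counts, reached 32115 (2.55-fold, 2.50 to 2.60), and held 1151 after LPS. Clec7a, the β-glucan receptor dectin-1, went from 4701 to 58962 counts (11.6-fold, 11.2 to 11.9), and held 1324 after LPS. At 2539 TPM it was the highest list member per length after IL-4, ahead of Arg1 at 1778, Cd36 at 796, Stab1 at 484, Chil3 at 330 and Mrc1 at 318. Itgax, an integrin chain also known as CD11c, rose from 1313 to 6882 counts (4.84-fold, 4.56 to 5.14).

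Enzymes, transporters and matrix proteins followed. Slc7a2, a carrier of cationic amino acids that brings arginine into the cell, went from 351 to 30334 counts (79.8-fold, 71.8 to 88.9). After LPS it held 17137 counts, so here the NT libraries stood apart from both treatments. Ptgs1, cyclooxygenase 1, rose from 147 to 5637 counts (35.4-fold, 30.1 to 42.0) and held 23 after LPS. Ch25h, cholesterol 25-hydroxylase, had 18 and 356 counts but 3845 after LPS. Fn1, fibronectin, had 86 counts in NT and 6980 after IL-4 (74.9-fold, 60.6 to 93.8), and F13a1, a factor that crosslinks fibrin, 32 and 1363. F13a1 differed between the genotypes already in NT, with 170 counts in the cKO NT library and 4899 in the cKO IL-4 one. Tgm2, tissue transglutaminase, went from 7726 to 16126 counts, a log2 fold change of 0.94 that did not reach the limit, and was highest after LPS at 30543.

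The chemokines Ccl22 and Ccl17, ligands of CCR4, had 43 and 2805 counts (60.2-fold, 44.6 to 83.4) and 1 and 189 counts (a ratio of 175, 30.9 to 6929). Their cKO IL-4 library held more, 5256 and 456. Ccl24 had 9 and 16 counts. Of the remaining higher members, Matk and Tfec rose 4.33-fold (3.91 to 4.81) and 6.39-fold (5.71 to 7.16), and Il31ra and Rnase2a had 0 counts in NT and 136 and 46 after IL-4, at least 41.9-fold and at least 14.2-fold higher. The 3 lower members were Clec10a, a galactose-type lectin (242 and 27 counts), Il1rn, the IL-1 receptor antagonist (14858 and 3214, with 222746 after LPS), and Atp6v0d2, a proton pump subunit (5475 and 2017). Mgl2, Ear2, Stab1, Cd163 and Cd36 did not pass the fold, at log2 fold changes of 0.77, 0.38, 0.23, -0.60 and -0.81.

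**Figure D2:**
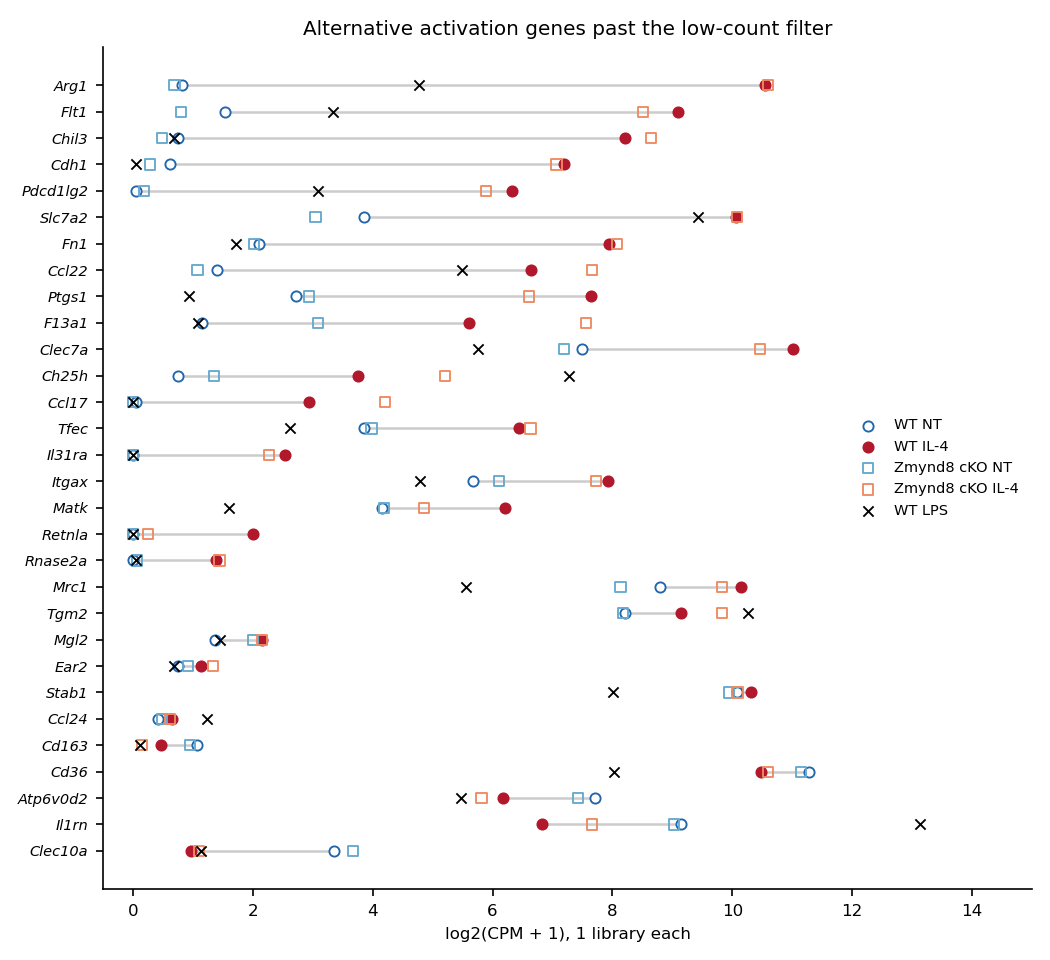
Rows are the 30 alternative activation genes past the filter, ordered by log2 fold change in WT; the x axis is log2(CPM + 1) in each of 5 libraries, and a grey line joins WT NT with WT IL-4. For Arg1 the NT and IL-4 libraries of both genotypes sit apart and the WT LPS library in between, while Clec10a, at the bottom, is lower after IL-4 in both genotypes.

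Among 23 compared genes of the IL-4 receptor and its signalling, 6 were at least 2-fold higher and 1 lower, against 10.0% higher and 6.19% lower of all compared genes, at a median log2 fold change of 0.49 against 0.15. The 3 highest were feedback inhibitors of JAK-STAT signalling. Cish, which passed the filter only through the IL-4 library, had 6 counts in NT and 1741 after IL-4 (268-fold, 123 to 731), Socs2 had 10 and 745 (68.8-fold, 37.2 to 144), and Socs1 had 128 and 1505 (10.9-fold, 9.06 to 13.1), with 7350 after LPS. Cish was highest in the 2 IL-4 libraries, 1741 and 1360 counts, and Socs1 was higher in WT LPS than in WT IL-4. Il4ra, named after its value was seen, had 2987 and 3595 counts (0.15 on the log2 scale) but 31761 after LPS, and Stat6 had 7035 and 6834 (-0.16). Il13ra1, the partner chain of the type II receptor, fell from 588 to 300 counts (2.12-fold, 1.84 to 2.45), but on deposited TPM it did not reach 2-fold. Jak2, named after its value was seen, rose from 1110 to 8733 counts and held 8859 after LPS.

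Of 19 transcription regulators listed as responsive to IL-4, 12 were higher and 1 was lower, at a median of 1.40. In the cKO pair 11 were higher and 1 lower, at 1.37. Over all compared genes 10.0% were higher and 6.19% lower in WT, and 15.0% and 6.09% in cKO. Irf4, a factor of alternative activation and of lymphocytes, had 49 counts in NT and 2152 after IL-4 (40.5-fold, 30.6 to 55.0), and 25 after LPS. Batf3 had 43 and 1124 (24.1-fold, 17.8 to 33.5), and Egr2 had 668 and 7515 (10.4-fold, 9.60 to 11.3) against 25 after LPS. All 3 were higher in the cKO pair too, at log2 fold changes of 3.88, 2.37 and 2.62. Bhlhe41 fell from 3253 to 288 counts (12.2-fold, 10.8 to 13.8). Cebpb and Myc, with 1390 and 811 and with 1368 and 829 counts, lay at -0.87 and -0.82, and Cebpb passed the limit under median ratio and TMM scaling.

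Genes of arginine and polyamine metabolism split, with 6 higher and 5 lower of 22 compared, against 10.0% higher and 6.19% lower of all compared genes, and a median of -0.28. Besides Arg1 and Slc7a2, Arg2, the mitochondrial arginase, had 4 and 360 counts (83.1-fold, 32.2 to 307) and passed the filter only through the IL-4 library. The polyamine genes Srm, spermidine synthase, and Azin1, an activator of ornithine decarboxylase, fell from 1148 to 403 counts (3.09-fold, 2.75 to 3.46) and from 9644 to 2892 (3.61-fold, 3.46 to 3.77). Nos2, which competes with arginase for arginine as nitric oxide synthase, had 229 counts in WT NT, 35 in WT IL-4 and 186078 in WT LPS. In the cKO pair Nos2 had 96 and 187 counts, which is not past 2-fold, and the difference between the pairs was not tested.

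The 32 compared genes of the NF-κB and LPS response went both ways, with 12 higher and 9 lower at a median of 0.22 in WT, and 23 of 34 higher and 3 lower at 1.63 in the cKO pair. The shares of all compared genes were 10.0% higher and 6.19% lower in WT, and 15.0% and 6.09% in cKO. Lcn2 (22 and 851 counts), Cxcl3 (16 and 597) and Ptgs2 (24 and 465), a siderophore-binding protein of neutrophils, a neutrophil chemokine and cyclooxygenase 2, rose 35.7-fold (23.4 to 57.3), 34.5-fold (21.0 to 60.7) and 17.9-fold (11.9 to 28.2). Marco, Ccl2 and Ccl7 fell, the last from 5456 to 588 counts (10.0-fold, 9.23 to 11.0). After LPS the WT library held 19081 counts of Ccl2, 15549 of Ccl7 and 4351 of Ptgs2, but 33 of Cxcl3.

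Interferon response genes past 2-fold were all lower after IL-4 in the WT pair, and those past 2-fold in the cKO pair were all higher. These were not all the same genes. Isg20 and Oas3, lower in WT at -2.30 and -1.49, lay at -0.26 and 0.82 in cKO. Of 35 compared in WT, 0 were at least 2-fold higher and 17 lower, at a median of -0.94 against 0.15 over all genes, whereas in the cKO pair 25 of 35 were higher and 0 lower, at 1.27. The background is 15.0% higher and 6.09% lower (21.1% either way) of the 12966 genes compared in cKO, and 6.19% lower in WT. Rsad2, which encodes the antiviral protein viperin, had 16270 counts in WT NT and 2053 in WT IL-4 (8.58-fold lower, 8.20 to 8.99), but 2213 and 5596 in the cKO pair and 282143 in WT LPS. Ifit2 and Ifit3, which bind viral RNA or its sensors, fell 7.13-fold (6.85 to 7.42) and 6.99-fold (6.71 to 7.28) in WT and were higher in cKO at 1.50 and 1.03 on the log2 scale. Tor3a, Ifih1 and Bst2, at the other end of the list, lay at 0.35, -0.06 and -0.10 in WT. Summed over the 36 listed genes, the level was 8583 CPM in WT NT, 4073 in WT IL-4, 2766 in cKO NT, 6682 in cKO IL-4, 62613 in WT LPS and 62224 in cKO LPS. The NT libraries thus stood further apart from each other than the IL-4 libraries did, and their part in both directions was not tested.

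**Figure D3:**
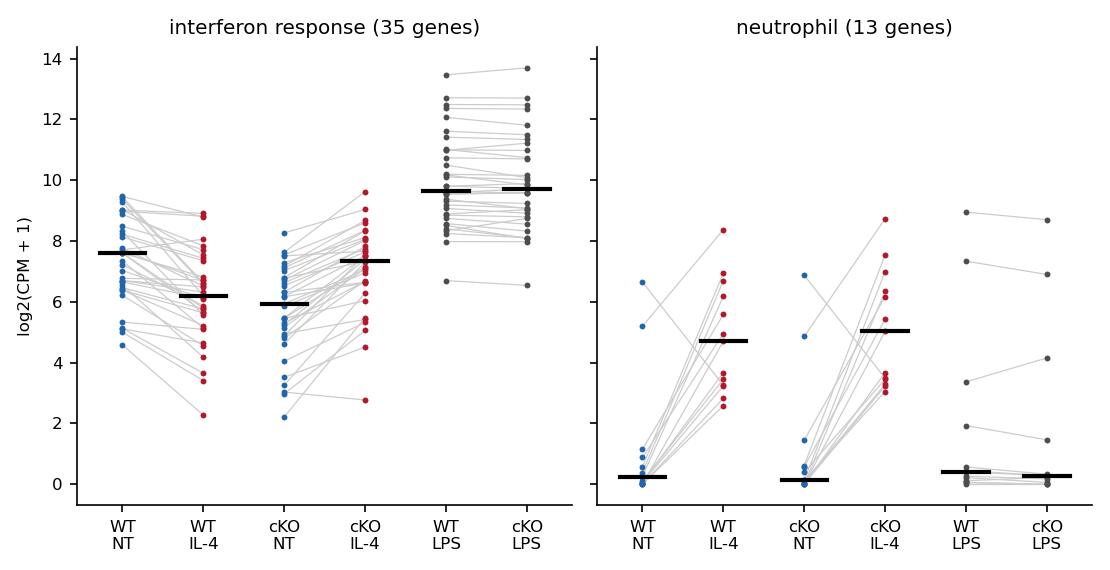
The y axis is log2(CPM + 1) of each compared member of the interferon response list (35 genes, left) and the neutrophil list (13 genes, right) in the 6 BMDM libraries; points are genes, bars medians, and lines join the same gene within a pair of libraries. Most interferon genes run down from NT to IL-4 in WT and up in cKO and lie highest in LPS, whereas all neutrophil genes but Mmp8 run up from NT to IL-4 in both genotypes.

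Genes of MHC class II antigen presentation rose in 4 of 10 compared and fell in 0, against 10.0% higher and 6.19% lower of all compared genes, at a median of 0.86. Ciita, their master regulator, had 36 and 640 counts (16.4-fold, 11.7 to 23.6), H2-DMa, which loads peptide, 402 and 1856 (4.26-fold, 3.83 to 4.76), and Cd74, the invariant chain, 7148 and 26840 (3.47-fold, 3.38 to 3.56). The classical chains H2-Aa and H2-Eb1 lay at 0.35 and 0.54, and Ctss, the protease that trims the invariant chain, at -0.14. Ciita, H2-DMa and Cd74 were also higher in the cKO pair, at 3.13, 1.14 and 1.29.

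Chemokines and their receptors went 10 up and 8 down of 27 compared, against 10.0% higher and 6.19% lower of all compared genes. Their median was -0.19, which turned to 0.34 over members with at least 100 counts. Cx3cr1, the fractalkine receptor, had 67 counts in NT, 6157 after IL-4 and 3 after LPS (84.8-fold higher after IL-4, 66.7 to 110). Next to Ccl2 and Ccl7, Ccl12 fell from 293 to 16 counts (-2.96 on the log2 scale), while the cKO pair had 171 and 353. The 3 genes that fell most thus all encode ligands of the monocyte receptor CCR2.

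Matrix, protease and adhesion genes counted 10 higher and 8 lower of 31, against 10.0% higher and 6.19% lower of all compared genes. Their median was 0.21, which turned to -0.14 over members with at least 100 counts. Cdh1, Fn1 and F13a1 led upwards. Mmp12, macrophage elastase, fell from 42210 to 3163 counts (14.5-fold, 13.9 to 15.0), Plau, urokinase, from 42134 to 3802 (-3.58 on the log2 scale), and Mmp8, neutrophil collagenase, from 2612 to 242 (11.7-fold, 10.2 to 13.4). The same 3 were lower in the cKO pair at -4.05, -3.10 and -3.39, and lower after LPS in WT as well.

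Among complement and efferocytosis genes, 6 of 19 were higher and 6 lower, against 10.0% higher and 6.19% lower of all compared genes, at a median of 0.23. C1qa, a chain of the complement starter C1q, rose from 3489 to 43424 counts (11.5-fold, 11.1 to 11.9), C3 from 4442 to 40877 (8.50-fold, 8.24 to 8.77) and Axl, a receptor for dying cells, from 2506 to 13352 (4.92-fold, 4.71 to 5.14). Cd5l, Mfge8, which bridges dying cells to phagocytes, and C5ar1, the C5a receptor, fell 12.2-fold (11.4 to 13.2), 7.61-fold (7.13 to 8.12) and 7.35-fold (7.06 to 7.65). C1qa was 2165 counts after LPS and C3 79596, so C3 was higher in both the IL-4 and the LPS library than in NT.

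The fatty acid, sterol and glycolysis lists each had more lower than higher members past 2-fold, against 10.0% higher and 6.19% lower of all compared genes. In fatty acid uptake and oxidation 2 of 28 were higher and 5 lower, at a median of -0.04, and the lower ones included Fabp5, Fabp4 (2860 and 194 counts, 16.0-fold, 13.8 to 18.6) and Plin2, a coat protein of lipid droplets (61101 and 16694, 3.96-fold, 3.90 to 4.03). Acsl1 and Pnpla2 rose 3.64-fold (3.41 to 3.88) and 2.32-fold (2.17 to 2.48). Sterol synthesis had 1 higher and 5 lower of 23, with Sqle, squalene epoxidase, at 2365 and 827 counts. Glycolysis had 2 higher, Pfkfb4 and Hk2 (4.01-fold and 3.05-fold), and 4 lower of 22, with Hk3 at 17118 and 4278 counts. The oxidative phosphorylation list had 1 higher and 0 lower of 87, at a median of 0.10 that turned to -0.07 under median ratio scaling.

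Growth factor genes included Pdgfa, which rose from 450 to 3364 counts (6.90-fold, 6.25 to 7.63), Hgf, which rose 3.20-fold (2.71 to 3.78), and Vegfa, which fell 4.62-fold (4.11 to 5.19). Over the whole list 5 of 14 were higher and 2 lower, at a median of 0.48. These and the immediate early, stress and cell cycle counts that follow stand against 10.0% higher and 6.19% lower of all compared genes. Of 22 immediate early genes 3 were higher and 4 lower, at -0.10, from Ier3 (199 and 2677 counts) down to Egr1 (659 and 66 counts), in the direction opposite to its relative Egr2. Of 19 stress genes 0 were higher and 3 lower, at -0.47, with Gdf15 at 1227 and 113 counts. Of 42 cell cycle genes 12 were higher and 8 lower, at a median of 0.38, which turned to -0.28 over members with at least 100 counts. Mki67 (213 and 1075 counts), Cenpf (3 and 86) and Ube2c (4 and 89) were the highest, and Ccnd1 (14828 and 2054), Pcna (24435 and 4530) and Cdc6 (78 and 8) the lowest. Of the 12, 4 had fewer than 10 counts in NT and passed the filter through the IL-4 library, Cenpf and Ube2c among them, and 1 of the 8, Cdc6, passed it through NT. Cenpf and Cdc6 did not reach 2-fold on deposited TPM.

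**Figure D4:**
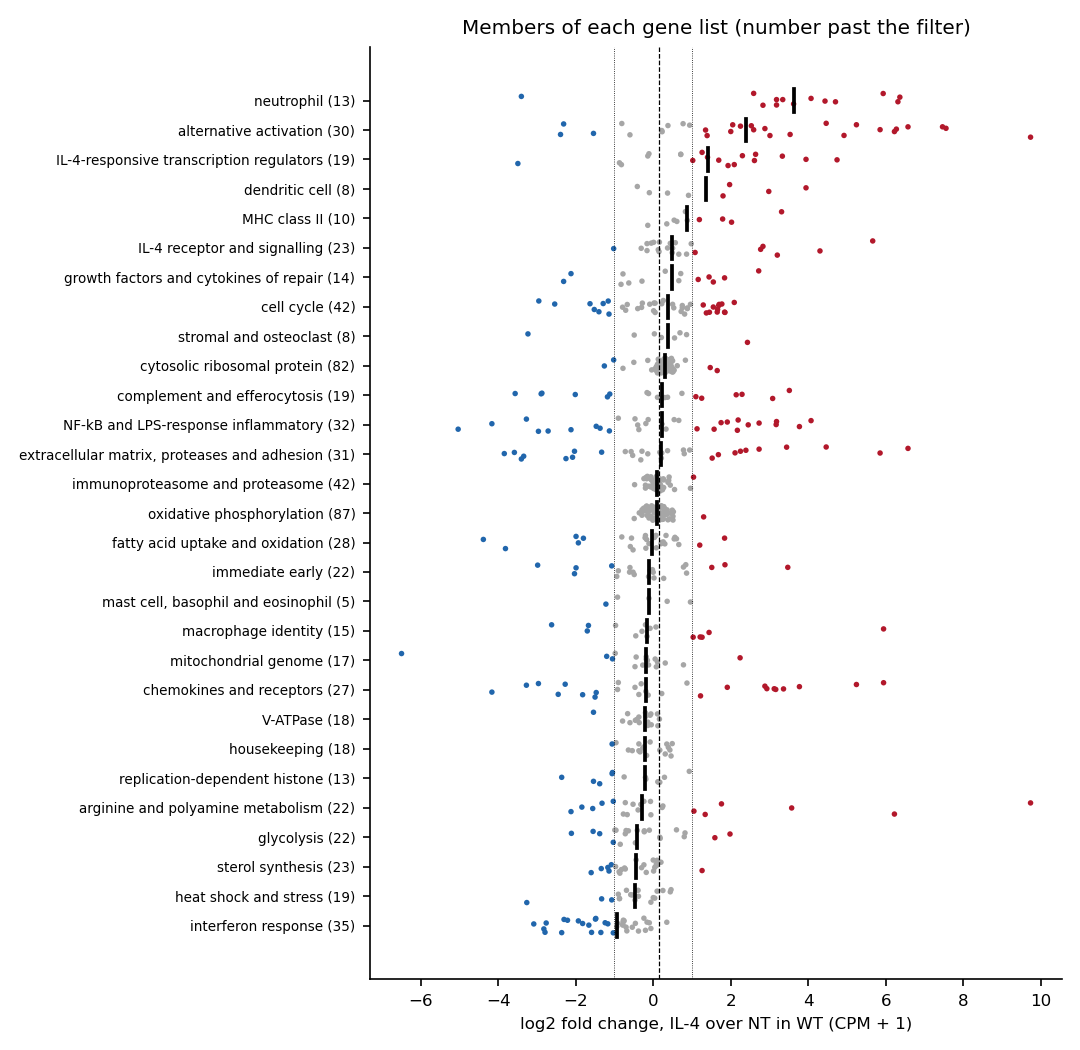
Each point is a compared member of a gene list, at its log2 fold change, IL-4 over NT in WT; red and blue mark members past 2-fold, black bars the median of a list, and the dashed line the median of all compared genes at 0.15. The medians of the neutrophil and alternative activation lists are 3.62 and 2.39, which the filter moved upwards, since 8 of 13 and 6 of 30 members passed it only through the IL-4 library. Among the lists drawn, those with at least 5 compared members, the interferon response list has the lowest, -0.94.

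The labelled cell type was checked against its markers. Of 16 macrophage identity genes listed, 15 were matched by their symbol, and Itgam was not. All 15 passed the filter, and their sum was 20775 CPM in WT NT and 21199 in WT IL-4. Csf1r, the M-CSF receptor, had 45362 and 133483 counts, and Fcgr1, the high affinity IgG receptor, fell from 20642 to 3613 (6.19-fold, 5.97 to 6.41). In all, 5 of the 15 were higher and 3 lower, against 10.0% and 6.19% of all compared genes, at a median of -0.16. Sums over genes of other lineages were 5.38 and 15.2 CPM for B cells, 29.8 and 5.67 for T and NK cells, and 27.6 and 16.3 for mast cells, basophils and eosinophils. In the cKO pair this last sum was 32.8 and 38.8. In WT most of it was the receptor gene Ccr3 (581 and 319 counts), while Prg2, an eosinophil granule gene, had 0 and 27 counts in WT and 0 and 67 in cKO. The single T and NK gene past the filter was Cd4 (762 and 144 counts), which macrophages can also express, and Cd3e, Cd3d and Cd3g had at most 1 count in either library. Of 8 dendritic cell genes 4 were higher and 0 lower, at a median of 1.35, against 10.0% and 6.19% of all compared genes, with Batf3 and Fscn1 (3 and 221 counts) highest, while Ccr7, Siglech and Cd209a were too low to be compared. Of the 8, 4 had fewer than 10 counts in NT and passed the filter through the IL-4 library, Fscn1 and Zbtb46 (5 and 89 counts) among them, so this count and median are descriptions. Of 3 erythroid and platelet genes compared 1 was higher and 0 lower, namely Pf4 (3044 and 10735 counts), a platelet chemokine, and the globin genes had at most 13 counts. Stromal and osteoclast genes summed to 107 and 121 CPM, with Ctsk, a bone-resorbing protease, falling from 542 to 37 counts. Housekeeping genes lay at a median of -0.20, with 0 of 18 higher and 1 lower. Of 82 ribosomal protein genes 2 were higher and 2 lower, of 42 proteasome genes 1 and 0, of 18 V-ATPase genes 0 and 1, of 13 histone genes 0 and 5, and of 17 mitochondrial genome entries 1 and 3.

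Neutrophil genes moved with IL-4. Of 16 listed, 13 passed the filter, 12 of these were higher after IL-4 and 1 lower, against 10.0% and 6.19% of all compared genes, at a median of 3.62 in WT and 3.77 in the cKO pair. However, 8 of the 13 had fewer than 10 counts in NT and passed only through the IL-4 library. The filter thus fixed the direction of these 8, though not their passing of 2-fold, and the count and the median are descriptions. Of the granule genes of neutrophils, Mpo, Elane, Ltf and Ngp were at or near 0 in the NT and LPS libraries. Others were not, with 2612 counts of Mmp8 in WT NT and 4002 of Lcn2 in WT LPS. Mpo, myeloperoxidase, named like Ly6g, Cxcr2 and Cd177 after its value was seen, had 0 counts in WT NT, 709 in WT IL-4, 0 and 825 in the cKO pair and 1 in WT LPS, Elane had 0 and 142 in WT, and Ltf, lactoferrin, 5 and 2027. S100a9 had 13 and 3451 counts and Ngp 8 and 2908 (245-fold, 143 to 461, and 336-fold, 170 to 778). Ly6g, a surface marker of mature neutrophils, had 1 and 3 counts, and Mmp8 was lower after IL-4. Other surface proteins of neutrophils were higher, Cxcr2, a chemokine receptor, with 1 and 333 counts in WT and 7 and 260 in cKO, and Cd177 with 1 and 239 in WT and 1 and 229 in cKO. Summed over the list, the level was 139 and 148 CPM in the NT libraries, 778 and 1017 in the IL-4 libraries and 668 and 553 in the LPS libraries, where Csf3r and Lcn2 made up most of it, as Mmp8 and Csf3r did in NT. In bulk libraries more cells of a type and more RNA per cell cannot be told apart, and the part of these cells in the other results was not tested. The library names number both IL-4 libraries apart from the 4 NT and LPS libraries. The labels do not call this a batch, and whatever it stands for cannot be told apart from IL-4.

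Over the whole comparison the cKO pair, which shares no library with the WT pair, mostly moved the same way. In both pairs, however, the library names number IL-4 apart from NT. A like change in both pairs thus cannot tell IL-4 from whatever the numbering stands for. Of the 1298 higher genes of WT that could be compared in cKO, 1015 (78.2%) were at least 2-fold higher there, which is 52.1% of the 1950 higher genes of cKO, and 0 were at least 2-fold lower. Of all genes compared in cKO, 15.0% were higher and 6.09% lower. Of 800 lower genes, 505 (63.1%) were lower in cKO, which is 63.9% of the lower genes there, and 26 were at least 2-fold higher. The 26 include Rsad2, Ifit1, Ifit2, Ifit3, Isg15, Mx1 and Cmpk2 from the interferon list and, like Ifit1, Isg15, Mx1 and Cmpk2 named after their values were seen, Slfn4 (989 and 388 counts in WT, 289 and 3156 in cKO) and the drug transporter gene Abcb1a (220 and 100 counts in WT, 72 and 418 in cKO). Abcb1a did not reach 2-fold in WT on deposited TPM. Zmynd8 itself had 2284 and 3636 counts in WT and 1842 and 3944 in the libraries labelled cKO. Counts over the whole gene do not check the deletion of exons, so these are named by their labels. A difference between the genotypes was not tested, since each has 1 library per condition.

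**Figure D5:**
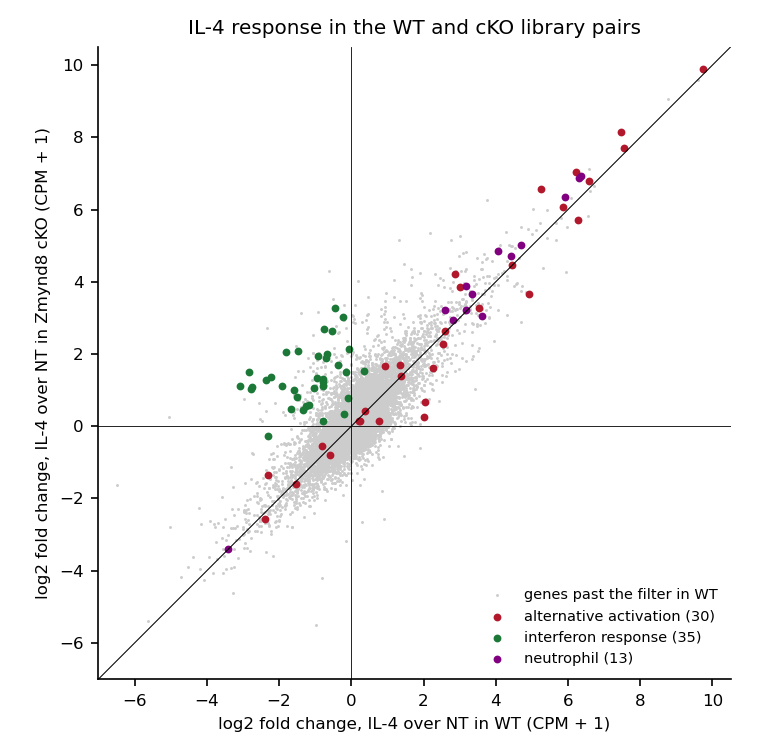
Each grey point is a gene compared in WT, with its log2 fold change, IL-4 over NT, in the WT pair on the x axis and in the Zmynd8 cKO pair on the y axis; the slanted line marks equal values. Most alternative activation and neutrophil genes lie near the line up to Arg1, apart from genes such as Retnla (0.25 in cKO), Matk (2.05 in WT and 0.68 in cKO) and Ccl17 (2.88 and 4.21), and the interferon response genes lie left of it, with -3.08 in WT and 1.12 in cKO for Rsad2.

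The total was 26209321 counts in WT NT and 28386612 in WT IL-4, and between 22597408 and 26128553 in the other 4 libraries. Genes with at least 1 count numbered 17048 in WT NT and 17695 in WT IL-4, and the 20 highest genes took 18.8% and 12.6% of the counts.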

How the data were processed

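Gene-level RNA-seq values of 6 BMDM libraries were used. Reads were mapped by the authors against the mm10 transcriptome with TopHat, and the deposited tables give estimated counts and TPM for each gene. The submitters' processing notes also name Bowtie 0.12.2 and CASAVA 1.4, with no role. The deposited TPM column of the IL-4 table was recorded as a score, since 2 overflowing annotation lines put other numbers into it. These lines were dropped, and the rest was used as TPM; the NT table has 431 lines without a gene. Columns with the authors' own fold changes, p-values and q-values were not used. Listed gene lengths differ between the NT and IL-4 tables for 36.5% of genes. This can move TPM, and if the gene models differed between the tables it can also move counts of single models, which was not tested.

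Counts, rounded to whole numbers, were scaled to the total of their library. A gene averaging 10 counts or more was called at a 2-fold difference on log2(CPM + 1), as the planned rule for 1 library a side, and no test was run. Gene names are those of the tables. Intervals are 95% Clopper-Pearson limits on the ratio of reads, and a count of 0 was set to 3 for a bound. Named genes were the 3 markers, the 10 highest and 10 lowest called genes that averaged 100 counts or more and had a symbol other than a clone name, all alternative activation genes, and up to 3 highest and 3 lowest compared members of other lists. Other genes in the text were chosen after their values were seen, among them the further interferon genes, Mpo, Csf3r, Cxcr2, Cd177 and Ly6g of the neutrophil list, Zbtb46, and the markers named as low. The members and lists were chosen with earlier results of these data known. Scaling alternatives used edgeR 4.0.16 (TMM) and DESeq2 1.42.0 (median ratio), and other steps Python 3.11.15 and scipy 1.17.1. Promoters are from RefSeq. The Raw264.7 and ChIP-seq samples were not used here.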

Additional observations from a re-analysis of the deposited data

Results flagged for a closer look

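Some results went one way in the WT pair of libraries and the other way in the Zmynd8 cKO pair, with 1 library per condition, so that the difference was not tested. The interferon response list had a median log2 fold change, IL-4 over NT, of -0.94 in WT and 1.27 in cKO. The cytosolic ribosomal protein list had 0.30 in WT and -0.34 in cKO, with few members past 2-fold in either pair. Among single interferon response genes the values in WT and cKO were -3.08 and 1.12 for Rsad2, -2.82 and 1.50 for Ifit2, -2.79 and 1.03 for Ifit3, -2.76 and 1.10 for Cmpk2, -2.36 and 1.27 for Ifit3b, and -2.21 and 1.37 for Mx1. They were -1.93 and 1.11 for Isg15, -1.82 and 2.06 for Ifit1, -1.48 and 2.08 for Gbp7, and -1.03 and 1.05 for Oasl2. Slfn4 and Abcb1a, named after their values were seen, had -1.40 and 3.14, and -1.05 and 2.02. In WT, Oasl2 and Abcb1a did not reach 2-fold on deposited TPM. Groups of 1 library leave no sample to be set against its group.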

How the results depend on the processing

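Counts of genes depended most on the fold required. At 1.2-fold, 5411 genes were higher and 3024 lower in WT, and 5799 and 3398 in cKO, and at 4-fold 366 and 199 in WT, and 523 and 180 in cKO. With a pseudocount of 0.1 CPM, 1988 genes were higher in WT. In both pairs no filter, a mean of 100 counts or more and 3 scalings, and in WT also deposited TPM and the whole interval past 2-fold, left each count within 1.5 times its value. So did the lower pseudocount for the lower genes of WT and for both counts of cKO. The filter at 10 counts changed none, since the pseudocount alone keeps genes below it from 2-fold. The share of higher among all calls in WT was 61.9% by totals, 50.9% by median ratio, 51.3% by TMM, 55.0% with totals that leave out the 20 highest genes and 62.8% on deposited TPM. Of the genes named by the rule or examined beside them, 248 were past 2-fold, and 8 lost this under median ratio or TMM scaling (Tyk2, Zeb2, Oaz2, Ptges, C1qb, Igf1, Spi1 and Psmd10), 14 on deposited TPM (Il13ra1, Sms, Oasl2, Ccna2, Cdc6, Cenpf, Kif20a, Sc5d, Ldha, Igf1, Zbtb46, Kit, Fth1 and Abcb1a), 6 without the 20 highest genes and 0 with the lower pseudocount. Calls were also gained, 17 under median ratio or TMM scaling (among them Cebpb, Ccl3, Ddx58, Zbp1 and Cd68), 14 without the 20 highest genes, 5 on deposited TPM and 23 with the lower pseudocount. None of these 248 genes turned in direction. The T and NK cell list, with Cd4 alone past the filter, had a median of -2.31, which was 0.05 with no filter. The median of the proteasome list, like that of oxidative phosphorylation, was 0.10 and turned to -0.07 under median ratio scaling. The higher and lower counts of the alternative activation, interferon response and neutrophil lists stayed within 1.5 times under each scaling, pseudocount and filter. No paired analysis was possible because the WT comparison has 1 library per condition, so NT and IL-4 share a single replicate number. A fit over both genotypes with genotype as a block was not run. Depth limits genes such as Retnla, Ccl17 and Mpo, with at most 1 count in NT, to ratios with wide limits or to bounds.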

Other observations

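At most 10 counts in each NT and LPS library and at least 100 in each IL-4 library were found for 40 genes. Besides the neutrophil genes Ngp, Ltf, Mpo, Cxcr2, Cd177, Prtn3 and Elane and the alternative activation genes Ccl17 and Il31ra, these include the transcription factor gene Mlxipl (1 and 448 counts in WT NT and IL-4, 0 and 434 in cKO), the growth factor gene Fgf2 (1 and 305, 7 and 266), the collagen gene Col14a1 (3 and 670, 4 and 944), the chitinase-like gene Chil1 (0 and 102, 0 and 146) and the calcium channel subunit gene Cacna2d3 (0 and 447, 0 and 462). Unnamed gene models make up part of the 40, among them Gm28439, Gm24798 (0 and 2693, 0 and 3591) and Gm6472 (2 and 2051, 2 and 2226). The set was chosen on these libraries after their values were seen, and since the same division runs through the library names, the treatment and the library numbering cannot be told apart for it. The NT and IL-4 tables list different lengths for 36.5% of genes, and whether gene models at 0 outside the IL-4 libraries were counted in the same way in both was not tested.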
